A study of Mus musculus with 2 samples.

Results

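The microRNA clusters Mir106b-25 and Mir106a-363 are the paralogs of the miR-17~92 cluster. They were described here in small RNA from newborn mouse lung. Their 9 precursor genes are Mir106b, Mir93 and Mir25, which lie in an intron of Mcm7, and Mir106a, Mir18b, Mir20b, Mir19b-2, Mir92-2 and Mir363, which lie on chromosome X. They were chosen by gene name, and all 9 had a row among the 1973 miRNA genes of the deposited tables. The samples form 1 group of 2 libraries, made from lung tissue of B6NCrl mice, a C57BL/6N substrain, on postnatal day 0. By the labels, replicate 1 holds both lungs of pup 1 and replicate 2 both lungs of pup 3 of the same pregnancy. Both carry 1 donor record in the labels, which state no sex and name no treatment or mutation. There is no second age, tissue or treatment, so the comparisons are between the clusters, between their members and between the pups.

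A microRNA is cut from a hairpin precursor and guides repression of messenger RNAs that pair with its seed, bases 2 to 8 of the mature strand. The miR-17~92 cluster and its paralogs arose by duplication and share seed families. The miR-17 and miR-25/92 seeds occur in every cluster, and the miR-18 and miR-19 seeds in miR-17~92 and Mir106a-363 but not in Mir106b-25. In mice, loss of miR-17~92 is lethal around birth with small lungs, whereas loss of either paralogous cluster alone is tolerated. Members with the miR-17 seed are known to repress the cell cycle inhibitor Cdkn1a, and miR-25 and miR-92a the cell death gene Bcl2l11. Mcm7, the host of Mir106b-25, encodes a subunit of the helicase that opens DNA for replication.

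The mature strands that carry these seeds are shown because the results are grouped by seed and because some strands are identical between clusters. They are from RefSeq on GRCm38.p6, which listed all 9 members, and the capitals mark the seed. Mir106b-25 encodes these strands:
miR-106b-5p: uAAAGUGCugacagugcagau
miR-93-5p: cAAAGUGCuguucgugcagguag
miR-25-3p: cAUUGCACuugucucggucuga

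Mir106a-363 encodes these strands, and those of miR-17 and miR-20a from miR-17~92 follow for comparison:
miR-106a-5p: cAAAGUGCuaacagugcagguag
miR-18b-5p: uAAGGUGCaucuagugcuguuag
miR-20b-5p: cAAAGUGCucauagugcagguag
miR-19b-3p: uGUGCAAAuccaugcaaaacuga
miR-92a-3p: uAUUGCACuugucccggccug
miR-363-3p: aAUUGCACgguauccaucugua
miR-17-5p: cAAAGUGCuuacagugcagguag
miR-20a-5p: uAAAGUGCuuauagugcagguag

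The members fall into 4 seed groups. The miR-17 seed is shared by 4 members (Mir106b, Mir93, Mir106a and Mir20b), and the miR-25/92 seed by 3 (Mir25, Mir92-2 and Mir363). Mir18b alone has the miR-18 seed and Mir19b-2 alone the miR-19 seed. With positions counted from 1 at the 5′ end, miR-106a-5p differs from miR-17-5p by the substitution U10A only. In the same way, miR-20b-5p differs from miR-20a-5p by U1C and U10C, and miR-18b-5p from miR-18a-5p by A18U and A20U.

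The mature miR-19b-3p of Mir19b-2 is identical to that of Mir19b-1, and the mature miR-92a-3p of Mir92-2 to that of Mir92-1. The precursors share 25 and 22 bases with these partners of the miR-17~92 cluster. For Mir92-2 the stretch shared with Mir92-1 is in capitals in the hairpin, since it covers the whole seed-bearing strand:
Mir92-2: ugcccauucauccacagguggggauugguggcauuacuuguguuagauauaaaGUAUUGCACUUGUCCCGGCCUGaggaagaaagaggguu

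Reads that mapped to several places, 34.6% of all reads in replicate 1 and 36.7% in replicate 2, are in no gene row. A read within a stretch shared by a pair of genes fits both, which holds for exact miR-19b-3p and miR-92a-3p. The values of Mir19b-2 and Mir92-2 can therefore be too low, and those of Mir19b-1 and Mir92-1 as well. The reads counted for these genes come from the other arm, reach past the stretch or differ from it. The parts of these kinds were not tested. None of the other 7 members holds a stretch of 20 bases found in another of the 1894 miRNA genes named by GENCODE M21. The remaining rows and the rest of the genome were not searched. Both arms of a hairpin are counted in 1 value, so a level belongs to the precursor gene and not to 1 mature strand.

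The positions of the clusters were taken from GENCODE M21 on GRCm38, the assembly named mm10 in the deposit. Mir106b-25 spans 498 bases at chr5:138165321-138165818 on the minus strand, in the order Mir106b (ENSMUSG00000065514.1, chr5:138165737-138165818), Mir93 (ENSMUSG00000065527.1, chr5:138165523-138165610) and Mir25 (ENSMUSG00000065394.1, chr5:138165321-138165404). All 3 precursors lie in intron 13 of the principal Mcm7 transcript, which has 15 exons. Mir93 and Mir25 also overlap an exon of an annotated Mcm7 transcript with a retained intron. Mir106a-363 spans 875 bases at chrX:52741693-52742567 on the minus strand. Its order is Mir106a, Mir18b, Mir20b, Mir19b-2, Mir92-2, Mir363, and no annotated gene contains these precursors. Its first and last are Mir106a (ENSMUSG00000065456.1, chrX:52742503-52742567) and Mir363 (ENSMUSG00000070106.1, chrX:52741693-52741767). Mir106a overlaps the noncoding gene Kis2 by 5 bases.

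The libraries held 4532902 reads on miRNA genes in replicate 1 and 5426081 in replicate 2. Levels are reads per 1000000 of these (CPM), so that 1 read is 0.221 CPM in replicate 1 and 0.184 CPM in replicate 2. Each read is a whole small RNA, so levels were not divided by length. Levels are shares of reads, and whether different small RNAs entered the libraries equally well was not tested. The spread between the libraries cannot show a bias that both share. The tissue label was checked against microRNAs known from lung compartments. All 10 of these were counted at means of 1123 CPM (Mir200a) to 160649 CPM (Mir126a), while 5 microRNAs of liver, heart and pancreas reached at most 299 CPM (Mir208b). Among these 5, Mir208b, Mir208a (heart, mean 114 CPM) and Mir122 (liver, mean 49.5 CPM) had at least 10 reads in each library. Both heart genes lay above the highest Mir106a-363 member, Mir363, at a mean of 83.9 CPM. The part of other tissue in the values was not tested. The 5 brain rows, of Mir124a and Mir9 genes, lay at 0 to 0.369 CPM, but each shares a 20-base stretch with another gene, so their reads could go uncounted and they do not check the tissue. The blood cell microRNAs Mir451a and Mir223 together held 2295 and 2097 CPM in replicates 1 and 2, and their part in the values was not tested. In whole lung, fewer cells of a type and less RNA per cell cannot be told apart.

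Mir106b-25 held far more reads than Mir106a-363. Its members together held 6057 and 6750 CPM in replicates 1 and 2, from 27457 and 36626 reads. The members of Mir106a-363 together held 187 and 167 CPM, from 846 and 908 reads. The lowest Mir106b-25 total lay far above the highest Mir106a-363 total. The log2 ratio of Mir106b-25 over Mir106a-363 was 5.18 ± 0.22 (SD, n = 2), a ratio of 36.2, with 5.02 in replicate 1 and 5.33 in replicate 2. No p is given, because flipping signs over 2 libraries gives an exact p of at least 0.5.

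Without Mir106b and Mir363, the strongest member of each cluster, the log2 ratio was 5.14. Without Mir19b-2 and Mir92-2 it was 5.52, a change whose direction is fixed because both belong to Mir106a-363. Uncounted reads of these genes would lower the ratio, by an amount the tables do not give. Mir106b-25 has fewer members, and per measured member the log2 ratio was 6.18, a shift set by the number of genes alone.

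**Figure D1:**
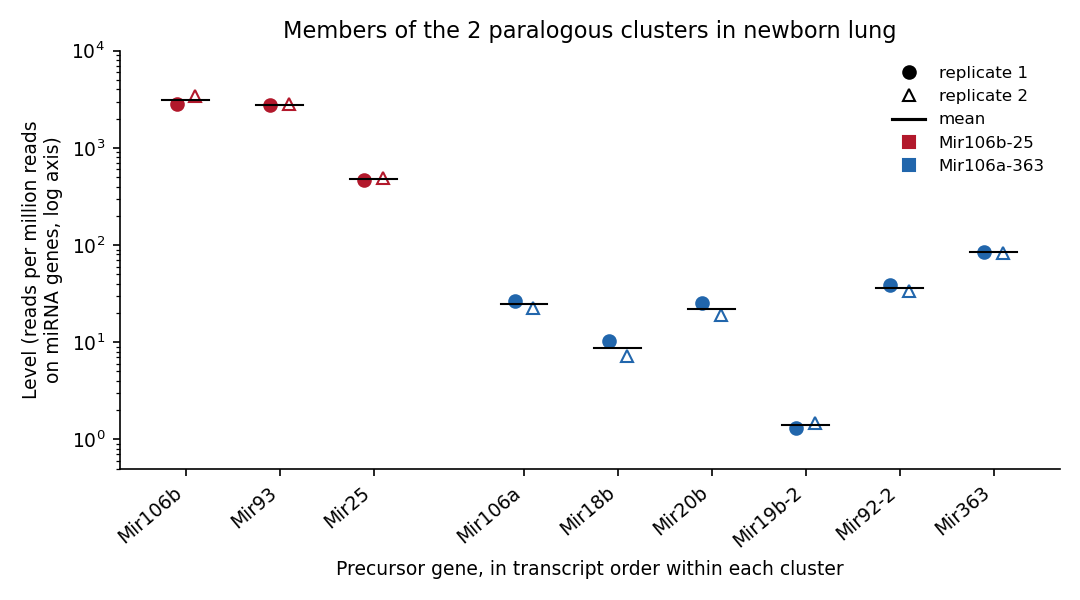
Level of each precursor gene in CPM (log axis), in transcript order, with Mir106b-25 in red and Mir106a-363 in blue. Filled circles are replicate 1, open triangles replicate 2 and lines the mean of the 2 libraries. Every Mir106b-25 member lies above every Mir106a-363 member, and Mir19b-2 is the lowest.

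Within Mir106b-25, Mir106b had 2822 CPM in replicate 1 and 3451 CPM in replicate 2, from 12790 and 18724 reads. Mir93 had 2773 and 2806 CPM, from 12571 and 15227 reads. The ratio of Mir106b over Mir93 was 1.02 in replicate 1 and 1.23 in replicate 2, a log2 ratio of 0.16 ± 0.19 (SD, n = 2) that is within the spread between the libraries. These neighbours carry the same seed and made up 48.9% ± 3.21 and 43.7% ± 2.98 of the cluster's reads.

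Mir25, the member with the miR-25/92 seed, stood well below its neighbours in both libraries. It had 462 CPM in replicate 1 and 493 CPM in replicate 2, from 2096 and 2675 reads. Mir106b over Mir25 gave a log2 ratio of 2.71 ± 0.14 (SD, n = 2), a ratio of 6.54, and Mir93 over Mir25 gave 2.55 ± 0.053, a ratio of 5.84. Both are many times the spread between the libraries, which does not measure a bias common to both libraries.

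In Mir106a-363 the order was different, with the last precursor of the transcript at the top. Mir363 had 84.7 CPM in replicate 1 and 83.1 CPM in replicate 2, from 384 and 451 reads. Mir92-2 followed with 38.4 and 33.7 CPM, from 174 and 183 reads. Both have the miR-25/92 seed, and Mir363 exceeded Mir92-2 by a log2 ratio of 1.22 ± 0.11 (SD, n = 2). Uncounted reads of Mir92-2 can make this ratio too high.

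The members with the miR-17 seed were lower. Mir106a, the paralog of Mir17 and Mir106b, had 26.7 CPM in replicate 1 and 22.7 CPM in replicate 2, from 121 and 123 reads. Mir20b had 25.1 and 19.2 CPM, from 114 and 104 reads. The ranges of Mir106a and Mir20b overlap between libraries, and this was the only neighbouring pair in the order of the 9 members for which they did. Within each library Mir106a was the higher, by a log2 ratio of 0.16 ± 0.11 (SD, n = 2). The ranges of Mir106b and Mir93, with a log2 ratio of 0.16 ± 0.19, were separate by a narrow margin only, 2822 against 2806 CPM. Mir363 exceeded Mir106a by a log2 ratio of 1.77 ± 0.15 (SD, n = 2).

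Mir18b had 10.4 CPM in replicate 1 and 7.19 CPM in replicate 2, from 47 and 39 reads. Mir363 exceeded it by a log2 ratio of 3.28 ± 0.35 (SD, n = 2). Mir19b-2 had 6 and 8 reads. The exact Poisson 95% interval runs from 2.20 to 13.1 reads for the 6 reads and from 3.45 to 15.8 for the 8. These intervals hold for counting error alone, because PCR copies of a molecule are not independent reads.

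A count of 10 reads or more in both libraries was reached by 8 of the 9 genes, 3 of 3 in Mir106b-25 and 5 of 6 in Mir106a-363. Over all 1973 genes this share was 15.6%. In the order of all genes by mean CPM, Mir106b stood at rank 42 and Mir93 at 45, with Mir25 farther down at 478 ± 21.6 CPM (SD, n = 2). Mir363 stood at 174, Mir92-2 at 208, Mir106a at 221, Mir20b at 226, Mir18b at 259 and Mir19b-2 at 349. Mir106b lay between Mir181c at 3217 ± 41.3 CPM and Mir27b at 3080 ± 247 CPM (SD, n = 2). Mir363 lay between Mir598 at 88.3 ± 7.26 CPM and Mir326 at 77.4 ± 9.06 CPM. For each of the 8 members, the range over the libraries overlapped that of the gene directly above and of the gene directly below it.

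The genes beside the other members were found in the same way. Mir93 lay between Mir541 and Mir423, Mir25 between Mir188 and Mir181b-2, and Mir92-2 between Mir7j and Mir199a-2. Mir106a lay between Mir218-1 and Mir505, Mir20b between Mir490 and Mir495, and Mir18b between Mir449b and Mir196a-2.

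**Figure D2:**
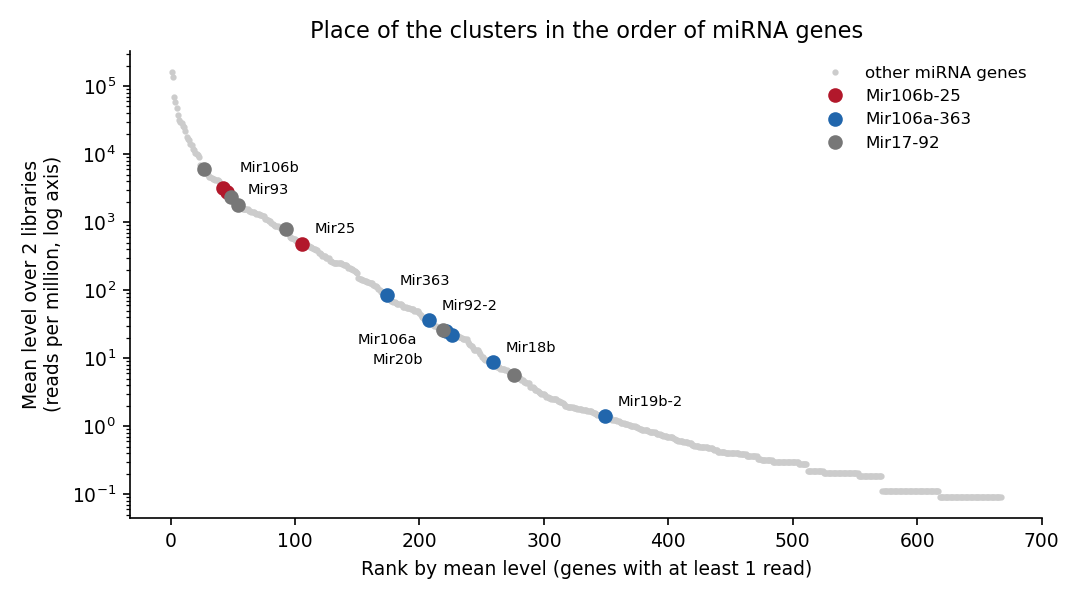
Mean level over the 2 libraries (CPM, log axis) of every gene with at least 1 read, against its rank. Mir106b-25 is red, Mir106a-363 blue, Mir17-92 dark grey and all other genes light grey. Mir106b and Mir93 stand at ranks 42 and 45 and the Mir106a-363 members at 174 to 349, with Mir25 between.

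The paralogs also differed in which seed family led. Each precursor was placed in the family of its seed-bearing strand, and its reads include the other arm. Precursors with the miR-17 seed held 92.5% ± 0.233 of the Mir106b-25 reads and 26.4% ± 1.96 of the Mir106a-363 reads (SD, n = 2). Those with the miR-25/92 seed held 7.47% ± 0.233 of the Mir106b-25 reads and 67.9% ± 2.73 of the Mir106a-363 reads. By exact Clopper-Pearson 95% intervals, the Mir106b-25 share of the miR-25/92 seed lay in 7.32% to 7.95% (replicate 1) and 7.04% to 7.57% (replicate 2). The Mir106a-363 share lay in 62.7% to 69.1% (replicate 1) and 66.7% to 72.8% (replicate 2).

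The shares of the clusters lay far apart in both libraries, and the difference exceeded the spread between libraries. The counted reads of Mir92-2 leave out exact miR-92a-3p. Without Mir92-2 and Mir19b-2, Mir363 alone held 60.3% of the remaining Mir106a-363 reads. The mature strand of Mir363 differs from miR-92a-3p at 11 of 21 positions, none of them in the seed. Uncounted reads would raise Mir92-2 and Mir19b-2, by amounts the tables do not give.

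**Figure D3:**
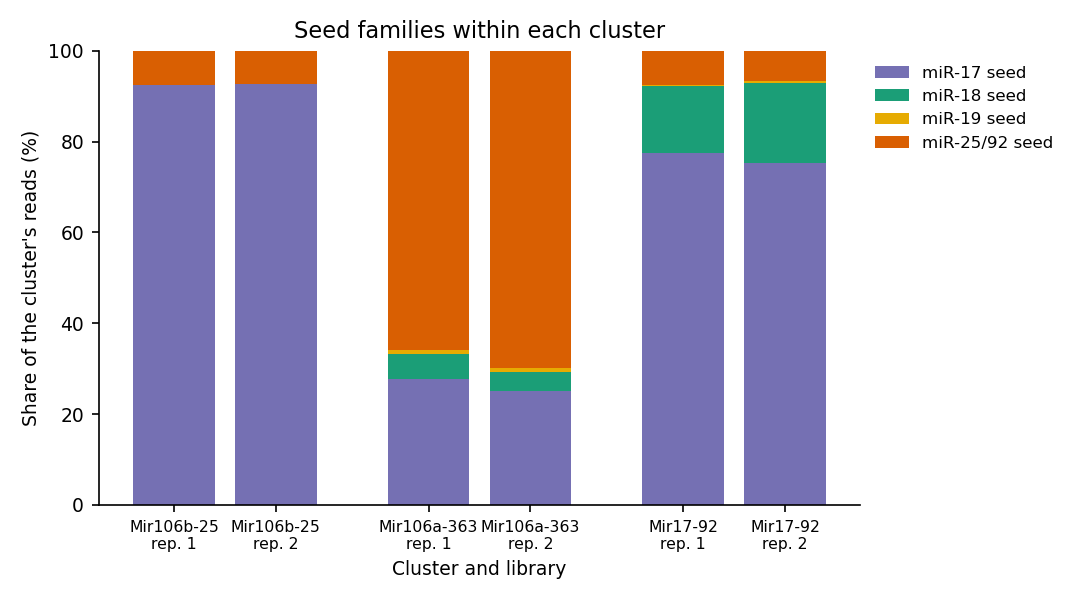
Share of each cluster's reads (%) on members of the 4 seed families, as stacked bars for each cluster and library (rep. is replicate). Members with the miR-17 seed fill most of Mir106b-25 and Mir17-92, and those with the miR-25/92 seed 66.0% and 69.8% of Mir106a-363. Reads of both arms are included.

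Members at like places in the clusters were then set against each other. Mir106b exceeded Mir106a by a log2 ratio of 6.99 ± 0.37 (SD, n = 2), a ratio of 127, and Mir93 exceeded Mir20b by 6.99 ± 0.29, also a ratio of 127. Mir25 exceeded Mir92-2 by 3.73 ± 0.20 and Mir363 by 2.51 ± 0.085, a ratio of 5.69. The gap between the paralogous clusters was thus wider for precursors with the miR-17 seed than for those with the miR-25/92 seed in both libraries.

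Against miR-17~92, the larger cluster of the family on chromosome 14, the paralogs stood at unlike distances. The summed level was 6404 ± 490 CPM for Mir106b-25 and 10895 ± 660 CPM for Mir17-92 (SD, n = 2), a log2 ratio of -0.77 ± 0.20. For Mir106a-363 the summed level was 177 ± 13.6 CPM, a log2 ratio of -5.94 ± 0.024 to Mir17-92. Mir106b-25 has fewer genes, and per measured member its log2 ratio to Mir17-92 was 0.23, of the opposite sign. Uncounted reads of Mir19b-1 and Mir92-1 can make both of these Mir106b-25 ratios too high, by an amount the tables do not give. Without these genes the log2 ratio of the summed levels was -0.66, a change whose direction is fixed because both belong to Mir17-92.

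Single members placed Mir106b-25 on both sides of miR-17~92. The log2 ratio of Mir106b over Mir17 was -0.93 ± 0.34, that of Mir25 over Mir92-1 was -0.70 ± 0.28, and that of Mir93 over Mir20a was 0.23 ± 0.087 (SD, n = 2 each). Mir93 was higher than Mir20a in both libraries. Mir25 over Mir92-1 can be too high, because Mir92-1 shares its mature strand with Mir92-2.

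Mir106a-363 members lay far below their miR-17~92 partners. The log2 ratio was -7.92 ± 0.030 for Mir106a over Mir17, -6.76 ± 0.20 for Mir20b over Mir20a and -7.67 ± 0.49 for Mir18b over Mir18 (SD, n = 2 each). The 121 and 123 reads of Mir106a stand beside 28787 and 30150 reads of Mir17, whose mature strand differs by U10A only. The 47 and 39 reads of Mir18b stand beside 7530 and 10060 reads of Mir18, whose mature strand differs by A18U and A20U only. Whether reads with mismatches were counted is not given in the sources used here. The part of such reads in Mir106a, Mir20b and Mir18b was not tested. Mir92-2 over Mir92-1 gave -4.43 ± 0.084 and Mir19b-2 over Mir19b-1 gave -2.03 ± 0.042, both from reads that could be placed at 1 locus. The ratio of the Mir19b genes rests on 6 and 8 reads of Mir19b-2 beside 25 and 32 of Mir19b-1. Its SD does not measure the counting error of so few reads.

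The share that each cluster supplied was taken over the precursors of each seed family, with the reads of both arms included. Reads on precursors with the miR-17 seed came to 14300 ± 223 CPM in all. Of these, Mir106b and Mir93 held 41.5% ± 3.92, Mir106a and Mir20b held 0.327% ± 0.044, and Mir17 and Mir20a held 58.2% ± 3.88 (SD, n = 2). The share of Mir106b and Mir93 was 38.7% in replicate 1 and 44.2% in replicate 2. None of these 6 genes holds a stretch of 20 bases found in another of the miRNA genes searched.

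Reads on the miR-25/92 seed precursors Mir25, Mir92-1, Mir92-2, Mir363, Mir32 and Mir367 came to 1624 ± 78.0 CPM. Of these, Mir25 held 29.5% ± 2.75 and Mir92-2 with Mir363 held 7.39% ± 0.083. Mir92-1 held 47.9% ± 4.86. The counts of Mir92-1 and Mir92-2 leave out reads of exact miR-92a-3p, which fit both genes. Mir25 and Mir363 together held 34.7% ± 2.93. Leaving out Mir92-1 and Mir92-2, whose reads are partly uncounted, makes this 69.5%, and adding Mir92b, which has the same seed, makes it 23.2%. Mir32 had 232 and 261 CPM in replicates 1 and 2, Mir92b had 796 ± 32.2 CPM and Mir367 had 0 reads, for which the upper limits of 3 reads are 0.662 and 0.553 CPM.

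Mir18b supplied 0.503% ± 0.166 of the reads on precursors with the miR-18 seed, and Mir18 the rest. Mir19b-2 supplied 4.29% ± 0.212 of the counted miR-19 seed reads, which totalled 32.7 ± 4.09 CPM and leave out reads that fit both Mir19b genes.

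**Figure D4:**
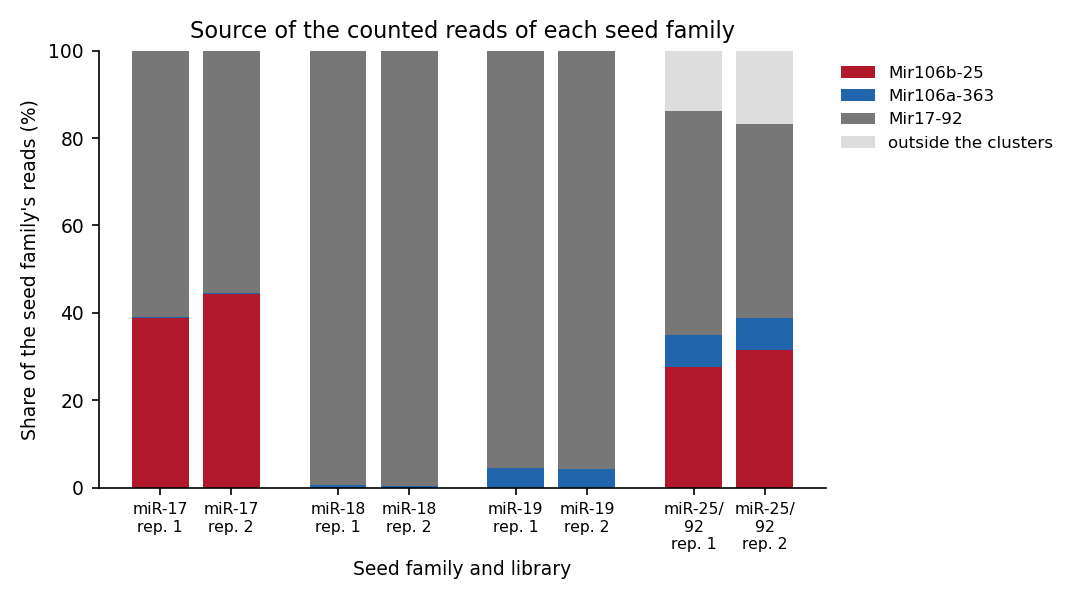
Share of the counted reads on the precursors of each seed family (%), both arms included, by cluster, as stacked bars for each family and library (rep. is replicate). Mir106b-25 supplies 38.7% and 44.2% for the miR-17 seed in replicates 1 and 2. Mir106a-363 supplies 7.33% and 7.45% for the miR-25/92 seed, and 4.44% and 4.15% for the miR-19 seed.

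The pups were compared by testing how the reads of each gene split between the libraries. The test was a two-sided exact binomial one against the totals of the libraries, adjusted after Benjamini and Hochberg over 375 genes with at least 10 reads in all. It compares these libraries and treats reads as independent, and 42.4% of all genes tested passed an adjusted p of 0.05. Of the 9 members 1 passed, Mir106b. It was lower in replicate 1, by a log2 ratio of replicate 1 over replicate 2 of -0.29 (adjusted p 2.04e-68, exact binomial test), and passed with the same sign under each other scaling tried.

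The other 8 members did not pass, with log2 ratios from -0.16 for Mir19b-2 to 0.53 for Mir18b. Mir93 had -0.02 (adjusted p 0.499, exact) and Mir25 had -0.09 (adjusted p 0.0648, exact). Within Mir106a-363, Mir20b had 0.39 (adjusted p 0.106, exact) and Mir363 had 0.03 (adjusted p 0.904, exact). The median over the 9 members was 0.03, as it was over all genes tested.

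Some calls turned on the scaling, those of Mir93 and Mir25 near 0 and that of Mir20b at a log2 ratio of 0.39. With TMM or DESeq2 size factors, scalings that centre on genes which differ little, Mir93 and Mir25 also passed as lower in replicate 1, and with all reads of the library as the total, Mir93 passed as higher in replicate 1 and Mir20b passed as well. Over all genes, 87 passed as higher and 72 as lower in replicate 1, against 61 and 101 with TMM, 66 and 93 with DESeq2 size factors and 108 and 55 with all reads. A ratio between members within a library does not depend on this scaling.

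**Figure D5:**
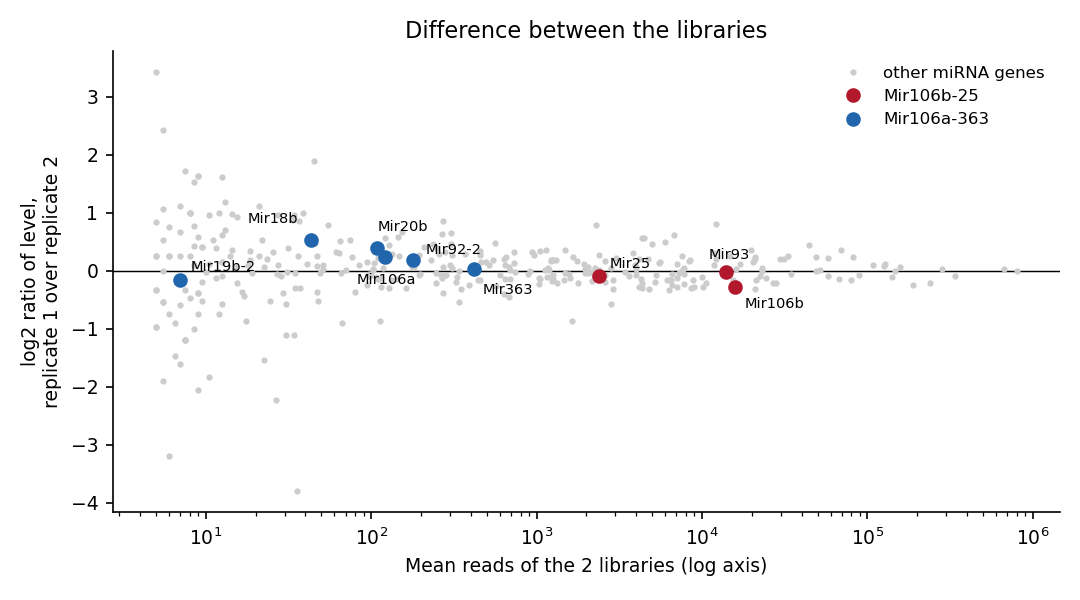
Log2 ratio of level, replicate 1 over replicate 2, against the mean reads of the 2 libraries (log axis), for genes with at least 10 reads in all and at least 1 in each library. Mir106b-25 is red, Mir106a-363 blue and other genes grey. Mir106b, at -0.29, is the member that passed the test, and the less abundant Mir18b and Mir20b lie farther from 0 without passing it.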

How the data were processed

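The authors deposited 1 table of raw read counts per library, whole numbers per miRNA gene, on mm10 with GENCODE M4 per the deposited file description. For the aligner, counting program and trimming, the sources used here name none. Each table holds either-strand, own-strand and opposite-strand counts. The meaning of the columns was read from the values. The either-strand column is the sum of the others, which does not tell which of those is own-strand. The column used as own-strand held 98.2% and 98.0% of the either-strand gene reads in replicates 1 and 2. Own-strand counts were used, and the members had 0 opposite-strand reads. The 4 rows naming no gene were left out. Of all reads, 54.8% and 52.2% lay on miRNA genes in replicates 1 and 2, 34.6% and 36.7% mapped to several places, 8.49% and 8.69% were unmapped, and 2.18% and 2.41% lay on no feature.

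CPM were computed here per 1000000 own-strand gene reads. GENCODE M21 named 1894 of 1973 rows. A gene with 0 reads has a floor of 3 reads. Replicates are separate pups per the labels, and their counts differed beyond sampling noise (chi-square per degree of freedom 75.2, 374 degrees of freedom). With 1 group, the count models of edgeR and DESeq2 had no contrast to test. Library scaling used edgeR 4.0.16 and DESeq2 1.42.0 as alternatives, with scipy 1.17.1 for tests. The split test was run on simulated Poisson reads, which hold counting error alone. That run checks the code and cannot show how the test behaves with the wider spread of these libraries. Named were the members, miR-17~92, Mir32, Mir367 and the genes directly beside each detected member in rank. The members and lists were chosen with earlier results of these data known. Mir92b and the seed shares within clusters were added after seeing the data.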

Additional observations from a re-analysis of the deposited data

How the results depend on the processing

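The log2 ratio of Mir106b-25 over Mir106a-363 was 5.02 and 5.33 in single libraries, 5.52 without members that share a 20-base stretch and 6.18 per measured member. Mir106b-25 over Mir17-92 stayed below 0 except per measured member, at 0.23, which follows from the number of genes. The share of Mir25 and Mir363 in their seed family was 34.7%, but 69.5% without genes that share a stretch and 23.2% with Mir92b. The miR-25/92 share of Mir106a-363 was 60.3% without such genes. Members that passed the test between libraries numbered 1, but 3 with TMM, with DESeq2 size factors and with all reads as the total. The log2 ratio of replicate 1 over replicate 2 of Mir363 was -0.042 with TMM and -0.026 with DESeq2 size factors, against 0.03, and that of Mir93 was 0.052 with all reads, against -0.02. Leaving out a replicate of 2 cannot move a mean beyond its SD, and either-strand reads cannot change ratios or shares of members with 0 opposite-strand reads, so neither bears on stability. Without the highest member of each cluster, the log2 ratio was 5.14 for Mir106b-25 over Mir106a-363 and -0.60 for Mir106b-25 over Mir17-92. Members detected numbered 9 at a minimum of 5 reads and 7 at 50, against 8. No paired analysis was possible because there is only 1 group. Depth limits Mir19b-2 and Mir18b most, and the number of uncounted reads limits Mir19b-2 and Mir92-2.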

Other observations

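MicroRNAs of early embryonic cells with seeds close to that of miR-17 were nearly uncounted. Of 10 genes of the miR-302 and miR-290 clusters, Mir294 alone had at least 10 reads in each library, at 3.97 and 3.50 CPM in replicates 1 and 2. Over all 1973 miRNA genes only 15.6% reached this count, so a low number of counted genes is not particular to these clusters. Each of the other 9 genes had at most 5 reads in a library, against 121 and 123 reads of Mir106a. Mir302a, Mir302b, Mir291a and Mir291b share a 20-base stretch with another miRNA gene and can be undercounted.

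Mir106a-363 was compared with other genes of its chromosome. Of 114 other X-linked miRNA genes, 29 had at least 10 reads in each library, or 25.4%, and 21 of these had a higher mean level than Mir363. The median of the mean levels of those 29 was 301 CPM, against 83.9 ± 1.13 CPM (SD, n = 2) for Mir363. Over all 1973 miRNA genes, 15.6% reached this count, with a median of 139 CPM. These values are a description and were not tested.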
